A study of Mus musculus with 3 samples.

Results

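The microRNA genes and microRNA host transcripts of mouse E14 ES cells were described in 3 RIA-seq libraries. Members were all gene symbols in the deposited tables that begin with Mir and a digit or with Mirlet7, with counts summed per symbol and chromosome. This gave 179 members of 26887 genes listed on any chromosome, against 530 symbols that the same rule finds in the GENCODE annotation of the genome build used. RIA-seq recovers a chosen RNA, and the RNA fixed to it, from lysed cells with biotinylated antisense oligonucleotides and streptavidin beads, followed by sequencing.

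All cells were undifferentiated E14 ES cells of strain 129/Ola, grown without feeders in medium with LIF and serum and fixed with glutaraldehyde before lysis and sonication. By the labels, the groups differed in the oligonucleotides only, which were antisense to Actb (the control), Malat1 or Tfrc, and the libraries are called by these targets. Actb and Tfrc are mRNAs for beta-actin and the transferrin receptor, and Malat1 is a long noncoding RNA of the nucleus. The study ran RIA-seq to test RNA interactions that involve Malat1, and asked in reverse whether pull-down of Tfrc recovers Malat1.

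MicroRNAs are short RNAs that guide Argonaute proteins to mRNAs, mainly through the seed near their 5′ end. They are cut from hairpins in longer primary transcripts, first by Drosha and Dgcr8 in the nucleus and then by Dicer1 in the cytoplasm. ES cells are known for microRNAs of the Mir290 cluster and of the Mir17 to Mir92 cluster, while let-7 microRNAs rise on differentiation. The libraries were made from sonicated RNA with the Ovation V2 kit, which is no small-RNA method, so that the counts of a microRNA gene are reads over its locus and not a measure of the mature microRNA.

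The Mir290 cluster held more counts than any other hairpin locus with a position, and Mir17hg the most among host transcripts. Their microRNAs are given as mature sequences from RefSeq, 5′ to 3′, with the seed (bases 2 to 8) in capitals. The first 6 are arms of the Mir290 cluster that come from the 3′ side of the hairpin, and 3 of them (from Mir291a, Mir294 and Mir295) share the seed AAGUGCU with miR-302b-3p and miR-302d-3p.
miR-290a-3p: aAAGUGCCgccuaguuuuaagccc
miR-291a-3p: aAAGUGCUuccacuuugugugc
miR-291b-3p: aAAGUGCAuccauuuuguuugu
miR-293-3p: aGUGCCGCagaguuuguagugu
miR-294-3p: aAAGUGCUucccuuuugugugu
miR-295-3p: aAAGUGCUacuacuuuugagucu
miR-302b-3p: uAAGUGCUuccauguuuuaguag
miR-302d-3p: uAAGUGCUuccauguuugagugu
The opposite arms of Mir290, Mir292 and Mir293 share another seed, CUCAAAC.
miR-290a-5p: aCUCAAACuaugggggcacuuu
miR-292a-5p: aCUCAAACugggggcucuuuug
miR-293-5p: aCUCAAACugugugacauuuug
Mir17hg is the primary transcript of microRNAs that include miR-17-5p and miR-20a-5p, which share the seed AAAGUGC.
miR-17-5p: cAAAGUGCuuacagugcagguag
miR-20a-5p: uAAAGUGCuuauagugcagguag
The last pair is shown for the number of places where each mature sequence occurs in the genome.
miR-692: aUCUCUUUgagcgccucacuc
miR-706: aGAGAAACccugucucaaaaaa
RefSeq sequences (build GRCm38.p6) were found for 163 of the 179 members. Each of the sequences shown for the Mir290 cluster had 1 exact match in NCBIM37, whereas miR-692 had 8 and miR-706 had 21403.

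The depth was 10405209 counts in the Actb library, 10078439 in the Malat1 library and 14553941 in the Tfrc library, so that 3 counts, taken as the floor, were 0.288, 0.298 and 0.206 per 1000000 counts. Where 3 values are given without names they are in this order of libraries. There was 1 library per condition and no replicate check, and no test between conditions was made. The median fold of all genes was 1.82 in Malat1 over Actb, 1.56 in Tfrc over Actb and 1.15 in Malat1 over Tfrc, and scaling by the median ratio divides a fold by these values. A fold is the ratio of shares of the library total, and the interval after each fold is the exact 95% interval for counting error only. Of these totals, Lars2 held 320477, 169680 and 221866 per 1000000 counts, and Actb 73038, 889 and 924. Both are part of the totals, so that the folds of all other genes depend on them as well. Reads carried no molecular identifiers that the sources describe, so that copies made by PCR count as reads. The oligonucleotide target Actb had 759974 counts in the Actb library, 8964 in the Malat1 library and 13445 in the Tfrc library, Malat1 had 19081, 107409 and 102470, and Tfrc had 453, 1020 and 1704. By share, Malat1 was 5.81 times (5.72 to 5.90) its level in the Actb library in the Malat1 library and 3.84 times (3.78 to 3.90) in the Tfrc library. The share of Tfrc was 2.32 times (2.08 to 2.60) that of the Actb library in the Malat1 library and 2.69 times (2.42 to 2.99) in the Tfrc library. Its fold in Malat1 over Tfrc was 0.864 (0.799 to 0.935). The 8 ES cell markers were listed in every library, with summed levels of 2983 to 4193 per 1000000 counts, while the 10 fibroblast and primitive endoderm markers summed to 28.0 to 39.4, with Afp and Col3a1 at 0 in the Actb library.

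The deposited tables give a gene up to 2 counts. Ensembl-ID counts are listed under the gene's Ensembl identifier, and Genome counts are listed under the reference name Genome. What separates them is not stated in the sources used here. Of the 179 members, 153 had Genome counts only and 26 had Ensembl-ID counts. Summed over members with a position as a hairpin (145), Genome counts were 72.8% of counts in the Actb library, 93.1% in the Malat1 library and 84.7% in the Tfrc library, and without Mir692-2a and Mir692-2b they were 96.3%, 98.9% and 98.4%. In 345 other single-exon genes of at most 150 nt they were 0.0976%, 0.781% and 0.488%, and over all genes 5.25%, 19.0% and 15.1%. Hairpin loci other than the Mir692 copies were thus counted almost wholly as Genome counts, and the median fold of all genes in Genome counts, 3.60 in Malat1 over Actb, 2.86 in Tfrc over Actb and 1.28 in Malat1 over Tfrc, is the background of that kind for the hairpin folds that follow.

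Most members were at the edge of detection. Reads were listed for 84 members in the Actb library, 112 in the Malat1 library and 117 in the Tfrc library, and 82.6 and 99.6 were expected in the Actb library and the Tfrc library after thinning to the depth of the Malat1 library. In all 3 libraries 43 members were listed, while 121 had at most 3 counts in every library. Listed in a single library were 18 members in the Actb library, 32 in the Malat1 library and 38 in the Tfrc library. At least 10 counts were reached by 13, 18 and 17 members.

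A single member held most of the counts. Mir5105, listed on chromosome 5 with no position in the annotation and with Genome counts only, had 8785 counts in the Actb library, 8374 in the Malat1 library and 12077 in the Tfrc library, or 844, 831 and 830 per 1000000 counts. Its level differed between the libraries by less than counting error, with folds of 0.984 (0.955 to 1.01) in Malat1 over Actb, 0.983 (0.956 to 1.01) in Tfrc over Actb and 1.00 (0.974 to 1.03) in Malat1 over Tfrc. This set it apart from other Genome counts, whose median fold over the Actb library was 3.60 in the Malat1 library and 2.86 in the Tfrc library. A lower fold in Genome counts than that of Mir5105 was found for 1.66% and 3.01% of genes. Scaled by the median ratio over all genes, the folds of Mir5105 over the Actb library were 0.541 and 0.630.

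Summed over all members, the counts were 9480 in the Actb library, 11147 in the Malat1 library and 13840 in the Tfrc library. Per 1000000 counts these were 911 (893 to 930, Wilson interval), 1106 (1086 to 1127) and 951 (935 to 967). The fold was 1.21 (1.18 to 1.25) in Malat1 over Actb, 1.04 (1.02 to 1.07) in Tfrc over Actb and 1.16 (1.13 to 1.19) in Malat1 over Tfrc. Mir5105 made up 92.7%, 75.1% and 87.3% of these sums. The other 178 members had 695, 2773 and 1763 counts, or 66.8, 275 and 121 per 1000000, and their folds were 4.12 (3.79 to 4.48), 1.81 (1.66 to 1.98) and 2.27 (2.14 to 2.41). Mir17hg alone was 32.7%, 57.3% and 34.0% of what remained. The direction of the sum over the Actb library depended on the scaling, since the median ratio over all genes gave 0.667 for the Malat1 library and 0.670 for the Tfrc library.

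**Figure D1:**
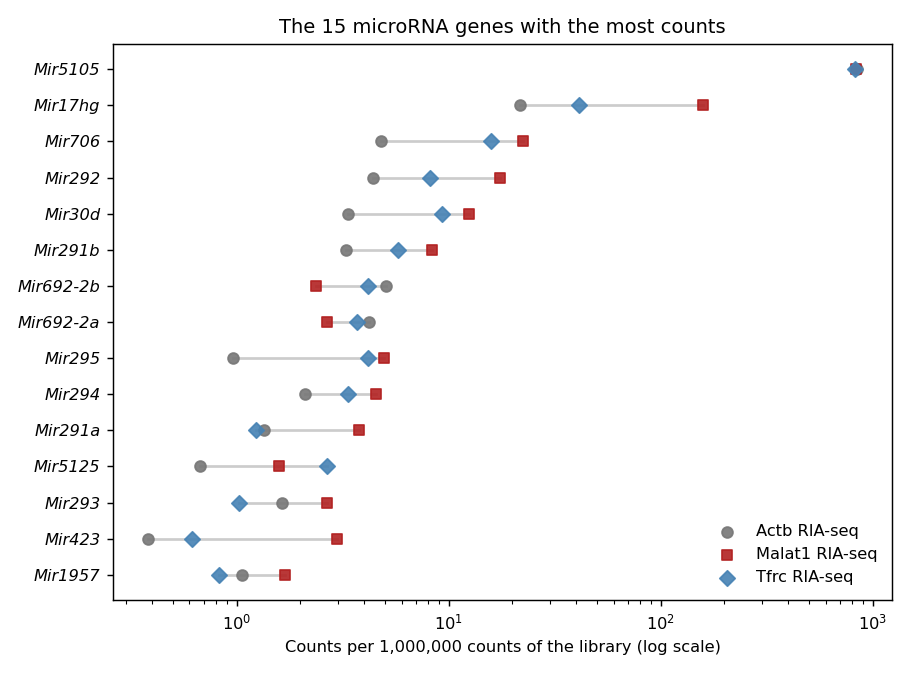
Level of the 15 members with the most counts, in counts per 1,000,000 counts of the library on a log axis, with a point for each of the 3 libraries joined by a grey line. Mir5105 is level at 830 to 844, Mir17hg lies at 158 in the Malat1 library against 21.8 and 41.2, and the Mir692 copies are lowest in the Malat1 library.

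Mir17hg had the largest share of the Malat1 library among members with a position. It is the host transcript of miR-17, miR-18a, miR-19a, miR-20a, miR-19b and miR-92a, ENSMUSG00000089726, at chr14:115442101-115445949 on the plus strand of NCBIM37, with exons of 79 and 3457 nt and an intron of 313 nt. The 6 hairpin genes lie within the longer exon, and 0 of the 6 had a row of their own. Whether reads over the hairpins were counted in Mir17hg is not stated in the sources used here. Mir17hg had 227 counts in the Actb library, 1590 in the Malat1 library and 600 in the Tfrc library, or 21.8, 158 and 41.2 per 1000000 counts. The Malat1 library was far above the others, and the Tfrc library lay nearer to the control.

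The fold of Mir17hg was 7.23 (6.29 to 8.35) in Malat1 over Actb, higher than that of 99.6% of genes, with 54 of 14572 genes above it. In Tfrc over Actb it was 1.89 (1.62 to 2.21), higher than that of 67.3% of genes. Between the target libraries it was 3.83 (3.48 to 4.21), and 25 of 16430 genes were higher. These comparisons share libraries and are not independent of each other. Scaled by the median ratio over all genes, the fold over the Actb library was 3.97 in the Malat1 library and 1.21 in the Tfrc library, and in Genome counts scaled to Genome totals it was 3.92 and 0.622.

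The kinds of count of Mir17hg did not move alike. Genome counts were 78 in the Actb library, 1073 in the Malat1 library and 195 in the Tfrc library, and Ensembl-ID counts were 149, 517 and 405. In Genome counts the fold in the Malat1 library was 14.2 (11.3 to 18.1) over the Actb library, with 1 of 8297 genes higher, and 7.95 (6.82 to 9.30) over the Tfrc library, with 2 of 11544 higher. In Ensembl-ID counts these folds were 3.58 (2.98 to 4.33) and 1.84 (1.62 to 2.10), above 96.0% and 93.3% of genes. In Tfrc over Actb the fold was 1.79 (1.37 to 2.36) in Genome counts, which was above 15.1% of genes. It was 1.94 (1.61 to 2.36) in Ensembl-ID counts, which was above 84.5% of genes. Genome counts were 34.4%, 67.5% and 32.5% of Mir17hg counts in the Actb library, the Malat1 library and the Tfrc library. Among 341 genes with at least 300 counts and at most 1000 nt of intron, the median share was 0.422%, 1.48% and 1.04%, and 7, 3 and 9 genes exceeded Mir17hg.

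**Figure D2:**
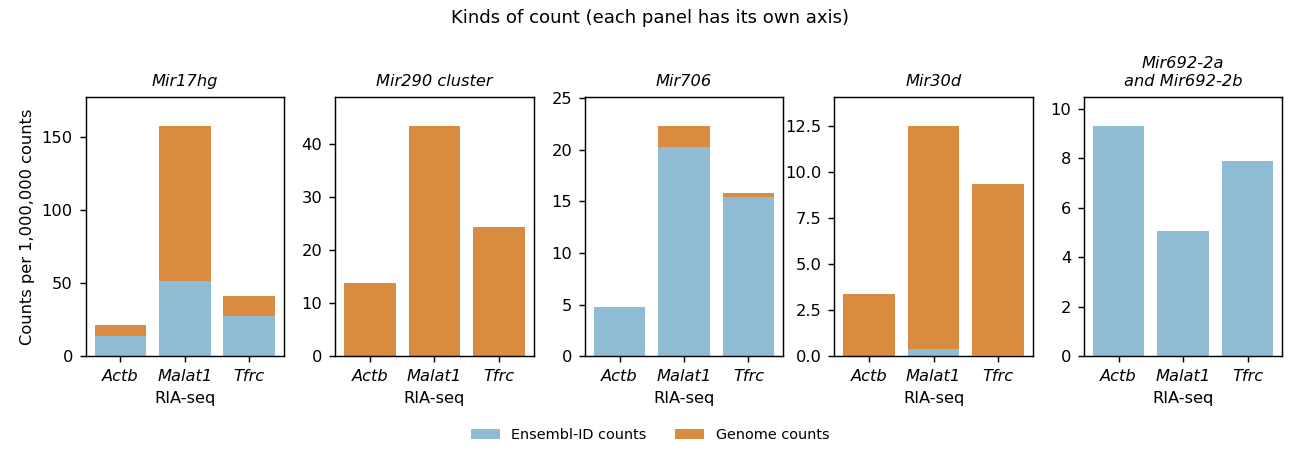
Counts per 1,000,000 counts in each library for Mir17hg, the Mir290 cluster, Mir706, Mir30d and the Mir692 pair, as bars split into Ensembl-ID and Genome counts, each panel with its own axis from 0. Genome counts make up 67.5% of Mir17hg in the Malat1 library and 34.4% and 32.5% in the others, all of the Mir290 cluster, and none of the Mir692 pair.

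The Mir290 cluster, whose microRNAs are abundant in undifferentiated ES cells, spans 2216 nt at chr7:3218627-3220842 on the plus strand, outside other annotated genes. All 7 hairpins, source of the AAGUGCU and CUCAAAC sequences given above, were listed in each library with Genome counts only. Summed, they had 145 counts in the Actb library, 439 in the Malat1 library and 355 in the Tfrc library, or 13.9, 43.6 and 24.4 per 1000000 counts. The order of the libraries was thus the same as for Mir17hg, and it is also the order in the median folds of all genes. The folds were 3.13 (2.59 to 3.80) in Malat1 over Actb and 1.75 (1.44 to 2.14) in Tfrc over Actb, and 1.79 (1.55 to 2.06) between the target libraries. Against all genes in summed counts these were above 87.3%, 60.7% and 92.7% of genes, but in Genome counts, the kind the cluster has, they were above 36.9%, 14.4% and 84.1%. With Genome counts scaled to Genome totals the folds over the Actb library turned to 0.863 in the Malat1 library and 0.609 in the Tfrc library.

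The hairpins of the cluster are known as products of a shared primary transcript and are not replicates of each other. Mir292 had 46, 177 and 119 counts in the Actb library, the Malat1 library and the Tfrc library. It held the most counts in each library, 31.7%, 40.3% and 33.5% of the cluster, and its fold in Malat1 over Actb was 3.97 (2.86 to 5.62). Mir291b, the next downstream, had 34, 84 and 84 counts, with a fold of 2.55 (1.69 to 3.92). Per nucleotide of hairpin, summed counts ranged from 0.337 at Mir290, the first hairpin, to 4.17 at Mir292.

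Mir295, the last hairpin, had 10, 50 and 61 counts and, among hairpins of the cluster with at least 10 counts in each library, the largest folds over the Actb library, 5.16 (2.59 to 11.4) in the Malat1 library and 4.36 (2.22 to 9.55) in the Tfrc library. Its share of the cluster was 6.90% in the Actb library, 11.4% in the Malat1 library and 17.2% in the Tfrc library. Mir293 had 17, 27 and 15 counts and a fold of 0.631 (0.293 to 1.34) in Tfrc over Actb, an interval that includes 1. Its share of the cluster was 11.7%, 6.15% and 4.23%. The neighbours Mir294 (22, 46 and 49 counts) and Mir295 lie next to each other, and their intervals overlap in both comparisons with the Actb library. Mir291a (14, 38 and 18 counts) had folds of 0.919 (0.432 to 2.00) in Tfrc over Actb and 3.05 (1.70 to 5.67) in Malat1 over Tfrc. Mir290 had 2, 17 and 9 counts and is given without a fold.

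**Figure D3:**
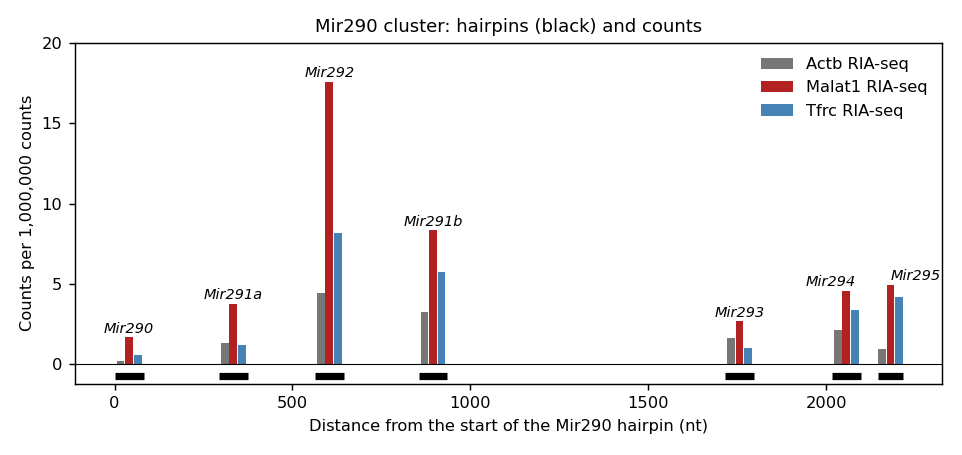
Counts per 1,000,000 counts (bars, 3 libraries) for each hairpin of the Mir290 cluster against its distance in nt from the start of the first hairpin, with hairpins drawn in black. Mir292 is highest in every library, and Mir295 is high in the Malat1 library and the Tfrc library relative to its 10 counts in the Actb library.

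Grouped by seed, the counts of a gene stand for its hairpin locus and not for 1 arm. The genes with the seed CUCAAAC (Mir290, Mir292 and Mir293) had 65, 221 and 143 counts, with folds over the Actb library of 3.51 (2.65 to 4.70) in the Malat1 library and 1.57 (1.17 to 2.14) in the Tfrc library. Those with AAGUGCU (Mir291a, Mir294, Mir295, Mir302b and Mir302d) had 50, 136 and 130 counts, with folds of 2.81 (2.02 to 3.97) and 1.86 (1.33 to 2.63). In Malat1 over Tfrc the folds were 2.23 (1.80 to 2.77) for CUCAAAC and 1.51 (1.18 to 1.94) for AAGUGCU, and the difference between the families was not tested. All these counts are Genome counts, whose medians over all genes were 3.60, 2.86 and 1.28 in the 3 comparisons.

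Mir706 and Mir30d had folds above 2 over the Actb library in both target libraries. Mir706 is listed with the identifier of a lincRNA of the same symbol (ENSMUSG00000090388, chr6:119983540-119986489 on the minus strand), which lies within Wnk1, a kinase gene. It had 50 counts in the Actb library, 225 in the Malat1 library and 230 in the Tfrc library, of which 0, 21 and 5 were Genome counts. Its folds were 4.65 (3.41 to 6.45) in Malat1 over Actb and 3.29 (2.41 to 4.56) in Tfrc over Actb, above 97.4% and 94.3% of genes. Wnk1 had 2881, 3577 and 5619 counts, with folds of 1.28 (1.22 to 1.35) and 1.39 (1.33 to 1.46). How the authors' counting divided reads between the overlapping genes, or treated reads with several matches, is not stated, and the value for Mir706 is uncertain for both reasons. The 21403 matches are those of the 22-nt mature sequence. Matches of the lincRNA, which spans 2950 nt, were not counted.

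Mir30d, at chr15:68172770-68172851 on the minus strand and outside other genes, belongs to a microRNA family found in many tissues. It had 35, 126 and 136 counts, with folds over the Actb library of 3.72 (2.54 to 5.57) in the Malat1 library and 2.78 (1.90 to 4.15) in the Tfrc library. In Genome counts, which are nearly all it has, its folds of 3.60 and 2.76 were higher than those of 49.9% and 46.3% of genes, at the middle of all genes. Between the target libraries its fold was 1.34 (1.04 to 1.72). In Genome counts scaled to Genome totals, the folds of Mir30d were 0.993 and 0.960.

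The copies of Mir692 went the other way. Both give the mature sequence miR-692 shown above and lie in exons of other genes, Mir692-2a at chr4:125181993-125182101 in the ferritin pseudogene Ftl2 and Mir692-2b at chr13:74544513-74544621 in Gm10116, and both had Ensembl-ID counts only. Mir692-2b had 53, 24 and 61 counts, with a fold of 0.468 (0.276 to 0.771) in Malat1 over Actb. Mir692-2a had 44, 27 and 54 counts, with a fold of 0.634 (0.377 to 1.05). Together they had 97, 51 and 115 counts, and folds of 0.543 (0.379 to 0.770) in Malat1 over Actb, 0.848 (0.641 to 1.12) in Tfrc over Actb, and 0.640 (0.451 to 0.898) between the target libraries. The genes whose exons hold them were also below 1 in Malat1 over Actb, Gm10116 with 3315, 1656 and 3836 counts at 0.516 (0.486 to 0.547) and Ftl2 with 2235, 852 and 2324 at 0.394 (0.363 to 0.426). Grik3, a glutamate receptor gene that also spans Mir692-2a, had 1115, 3271 and 3364 counts, at 3.03 (2.83 to 3.24). Reads over the hairpins and over the hosts cannot be told apart in these counts, and how reads of near-identical copies were shared out is not stated.

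Members in introns could be set beside their host genes. Mir423, in an intron of Ccdc55, had 4, 30 and 9 counts, and its fold in Malat1 over Tfrc was 4.81 (2.23 to 11.5). Its 9 counts in the Tfrc library are under the minimum of 10 counts used for calls. Ccdc55 had 205, 628 and 619 counts, and in Genome counts 27, 154 and 158. Its fold in Malat1 over Tfrc was 1.47 (1.31 to 1.64), and 1.41 (1.12 to 1.77) in Genome counts, the kind Mir423 has. Summed over the 64 members in introns, Mir423 included, this fold was 1.63 (1.26 to 2.10). The difference between Mir423 and Ccdc55 was not tested. Mir1957, in an intron of the glucose transporter gene Slc2a1, had 11, 17 and 12 counts, with folds over the Actb library of 1.60 (0.705 to 3.77) in the Malat1 library and 0.780 (0.315 to 1.95) in the Tfrc library. Slc2a1 had 3251, 7418 and 10224 counts, and folds of 2.36 (2.26 to 2.46) and 2.25 (2.16 to 2.34). In Genome counts, the only kind Mir1957 has, the folds of Slc2a1 were 4.43 (3.92 to 5.01) and 3.22 (2.85 to 3.64). Among members with no position in the annotation, Mir5125 had 7, 16 and 39 counts, and Mir378b had 1, 15 and 24. The fold of Mir5125 was 3.98 (1.76 to 10.6) in Tfrc over Actb and 0.592 (0.309 to 1.08) between the target libraries. The 7 counts of Mir5125 in the Actb library are also under the minimum of 10.

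By place in the annotation, members in introns of other genes (64) had 56, 134 and 119 counts, with folds over the Actb library of 2.47 (1.80 to 3.44) in the Malat1 library and 1.52 (1.10 to 2.13) in the Tfrc library. Members outside other genes and outside the Mir290 cluster (50) had 78, 220 and 210 counts, with folds of 2.91 (2.24 to 3.82) and 1.92 (1.48 to 2.53). The 3 host transcripts, Mir17hg, Mir706 and Mir155, had 280, 1826 and 836 counts. The 11 members in exons, which rest on the Mir692 copies, had 108, 55 and 117, and the 13 antisense to another gene had 10, 18 and 21. The 30 without a position other than Mir5105 had 18, 81 and 105 counts, with folds of 4.65 (2.76 to 8.23) and 4.17 (2.51 to 7.31). In Genome counts the folds were 2.64 (1.90 to 3.71) and 1.58 (1.13 to 2.24) for the intronic members. For those outside genes they were 3.04 (2.32 to 4.02) and 2.01 (1.53 to 2.66). All lay under the medians of all genes (3.60 and 2.86), but the intervals in Malat1 over Actb include 3.60. These medians are over genes with at least 10 Genome counts in both libraries, which few of these members reach.

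Counts of members past a fold of 2 were read against all genes that reached 10 counts in each of the libraries compared, a minimum that 13 of 179 members met in the comparisons with the Actb library and 15 in that of the target libraries. In Malat1 over Actb 8 of the 13 were at a fold of 2 or more, against 42.1% of 14572 genes, and 1 (Mir692-2b) was at 0.5 or less, against 0.954%. The median fold was 2.55 for these members and 1.82 for all genes. In Genome counts alone 7 of 10 members were at 2 or more against 88.6% of 8297 genes, and the medians were 2.68 and 3.60. In that kind of count 3 of the 10 were above the median of all genes, and Mir30d lay at it. Hairpins of the Mir290 cluster, which are not independent of each other, make up most of the 10. They also make up most of the 8 at 2 or more in summed counts. In Ensembl-ID counts 2 of 4 members were at 2 or more, against 24% of 13195 genes. Scaled by the median ratio, 5 of the 13 were at 2 or more in summed counts, against 7.38% of genes.

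In Tfrc over Actb 3 of 13 members (Mir295, Mir706 and Mir30d) were at 2 or more, against 28.6% of 14691 genes, and 0 were at 0.5 or less, against 0.388%. The medians were 1.59 and 1.56. In Genome counts 2 of 10 members were at 2 or more against 79.6% of 8344 genes, with medians of 1.68 and 2.86, and 1 of the 10 was above the median of all. Most of these 10 are again hairpins of the Mir290 cluster, which are not independent of each other. In Ensembl-ID counts 1 of 4 was at 2 or more, against 14.1% of 13391 genes. With the median ratio 2 of the 13 were at 2 or more, against 6.9% of genes.

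In Malat1 over Tfrc 5 of 15 members were at 2 or more, against 4.35% of 16430 genes, and 0 were at 0.5 or less, against 1.92%. The 5 were Mir17hg, Mir291a, Mir293, Mir292 and Mir1957, of which 3 lie in the Mir290 cluster. Mir1957 was at 2.05 (0.921 to 4.69), an interval that includes 1, on 17 and 12 counts. Mir293 was at 2.60 (1.33 to 5.26), on 27 and 15 counts. In Genome counts alone 5 of 12 were at 2 or more against 9.86% of 11544 genes, with medians of 1.40 and 1.28, and in Ensembl-ID counts 0 of 4, against 4.41% of 14387 genes. With the median ratio 3 of the 15 were at 2 or more, against 2.17% of genes.

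**Figure D4:**
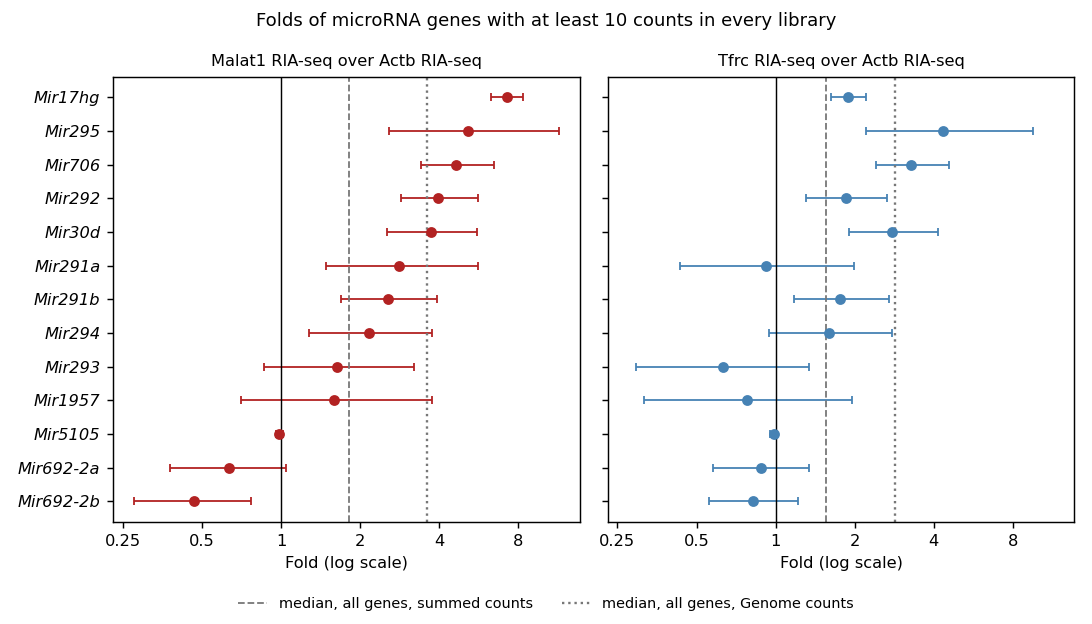
Fold (log axis) of the 13 members with at least 10 counts in every library, Malat1 over Actb at left and Tfrc over Actb at right, with bars for exact 95% intervals of counting error and lines at 1 and at the median of all genes in summed (dashed) and Genome (dotted) counts. Folds in Malat1 over Actb run from 0.468 (Mir692-2b) to 7.23 (Mir17hg), and Mir5105 lies close to 1 at left and right.

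**Figure D5:**
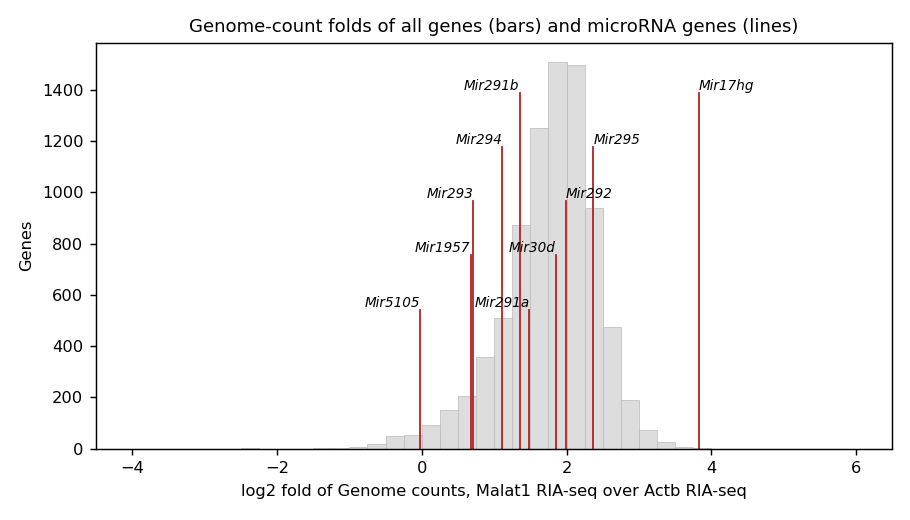
Number of genes by log2 fold of Genome counts, Malat1 over Actb (grey bars), with a red line at each of the 10 members that reach 10 Genome counts in both libraries, where line heights only space the names. Mir17hg, at a fold of 14.2, lies past nearly all genes, and Mir5105, at 0.984, lies at the low end.

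Lists of other microRNA clusters were close to the floor. The Mir302 and Mir367 cluster, known from ES and early embryonic cells, had 6, 2 and 2 counts from 3 of 5 symbols. The Mir106a to Mir363 cluster, a relative of the Mir17 to Mir92 cluster on the X chromosome, had 10, 19 and 10 counts, with all 6 symbols listed in at least 1 library, and Mir20b was listed in the Malat1 library only, with 7 counts. Of the Mir106b to Mir25 cluster 0 of 3 symbols were listed. The let-7 genes had 1, 4 and 2 counts from 3 of 8 symbols. MicroRNAs of differentiated tissues had 3, 16 and 8 counts from 4 of 15 symbols, of which Mir155, listed with the identifier of a lincRNA, held 3, 11 and 6. At these counts a difference between libraries was not detectable for most of these genes. Of the sums, differentiated tissues were at 5.51 (1.58 to 29.5) in Malat1 over Actb and 2.89 (1.17 to 7.79) in Malat1 over Tfrc. The Mir106a to Mir363 cluster was at 2.74 (1.21 to 6.61) in Malat1 over Tfrc. Intervals of the other folds of these sums included 1. The medians of all genes were 1.82 in Malat1 over Actb and 1.15 in Malat1 over Tfrc.

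The microRNA genes of the imprinted region between Dlk1 and Dio3 on chromosome 12 had 19, 49 and 47 counts from 21 of 49 symbols. The folds of the sum over the Actb library were 2.66 (1.54 to 4.79) in the Malat1 library and 1.77 (1.02 to 3.19) in the Tfrc library. The long noncoding RNAs of the region were counted more deeply, Meg3 with 622, 3024 and 2581 counts, Rian with 732, 2532 and 2540, and Mirg with 144, 831 and 667. Their folds were 5.02, 3.57 and 5.96 in the Malat1 library and 2.97, 2.48 and 3.31 in the Tfrc library. In Genome counts the microRNA genes were at 2.61 (1.50 to 4.70) and 1.66 (0.947 to 3.00), with intervals that include the medians of all genes (3.60 and 2.86). In the same counts Meg3 was at 6.70 and 3.69, Rian at 4.60 and 3.24 and Mirg at 6.37 and 3.15. The microRNA genes in the Sfmbt2 intron had 0, 0 and 5 counts from 4 of 68 symbols, while Sfmbt2 had 81, 147 and 205.

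The remaining members, 167 without Mir5105, Mir17hg, Mir706, the Mir692 copies and the Mir290 cluster, had 176 counts in the Actb library, 468 in the Malat1 library and 463 in the Tfrc library. Their folds were 2.75 (2.30 to 3.28), 1.88 (1.58 to 2.25) and 1.46 (1.28 to 1.66) in Malat1 over Actb, Tfrc over Actb and Malat1 over Tfrc. In Genome counts they were 2.87 (2.39 to 3.46), 1.98 (1.65 to 2.38) and 1.45 (1.27 to 1.66), against medians of 3.60, 2.86 and 1.28 over all genes.

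The genes that make and use microRNAs were set beside the members, with all 25 of the list found. In Malat1 over Actb 12 of 25 were at a fold of 2 or more, against 42.1% of genes, with a median of 1.96, and in Tfrc over Actb 7 of 25, against 28.6%, with a median of 1.49. Neither share stood far from that of all genes. Of the Microprocessor, Drosha, the nuclear nuclease, had 1626, 3305 and 3427 counts, with folds over the Actb library of 2.10 and 1.51, and Dgcr8, its RNA-binding partner, had 392, 1318 and 1581, with folds of 3.47 and 2.88. Xpo5, the export receptor of hairpins, had 510, 1029 and 1033, while Ran, the GTPase of the same step, had 3997, 3215 and 5611 and a fold of 0.830 in the Malat1 library.

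Dicer1, which cuts hairpins in the cytoplasm, had 663, 876 and 1135 counts, with folds of 1.36 and 1.22, and Eif2c2, which encodes Argonaute 2, had 1765, 1965 and 3164, with folds of 1.15 and 1.28. Of the partners of Argonaute, Tnrc6a had 436, 1536 and 1438 counts, with folds of 3.64 and 2.36, and Tnrc6b had 674, 1977 and 1883, with folds of 3.03 and 2.00. Of the let-7 regulators, Lin28a, which blocks processing, had 1106, 1479 and 1626, with folds of 1.38 and 1.05, and Dis3l2, the exonuclease that degrades uridylated let-7 precursors, had 165, 669 and 981, with folds of 4.19 and 4.25. Genome counts were 61.8%, 91.2% and 88.4% of Dis3l2, the largest folds of the list thus resting on that kind of count. In Malat1 over Tfrc 0 of 25 were at 2 or more, against 4.35% of genes, with a median of 1.20.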

How the data were processed

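RNA recovered by RIA-seq from E14 ES cells was analysed in 3 libraries, 1 per condition, grouped by the oligonucleotides that the labels name. The authors deposited raw read counts per gene for each library, as whole numbers without normalization, and did not list genes without a read. The submitters' processing notes name Bowtie 0.12.7 and the build mm9 (NCBIM37). The handling of reads with several matches, the strand and the counting of overlapping genes are not given in the sources used here.

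Counts were summed per symbol and chromosome and divided by the library total. Folds are ratios of these shares with a pseudocount of 0, with exact conditional (Clopper-Pearson) 95% intervals, and shares have Wilson intervals. Calls needed at least 10 counts in both libraries and a fold of 2 or more, or 0.5 or less. No test between conditions was made, and no library was left out. Depth was 10078439 to 14553941 counts. Positions and classes came from GENCODE for NCBIM37, and mature sequences from RefSeq, searched on both strands of NCBIM37.

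Named were the 15 members with most counts, those with the 3 highest and 3 lowest folds in each comparison, every listed member of the clusters named here (by count where more than 5), the genes that contain them and the microRNA pathway list. Members, lists and comparisons were chosen with earlier results of these data known. Alternatives changed the scaling, pseudocount, kind of count and minimum, and those for single members and the Mir290 cluster were chosen after seeing the data. Folds and intervals were run on simulated counts that held counting error only. The intervals held the true fold for 96.1% to 96.2% of genes. This checks the calculation and not PCR copies or the spread between libraries, which were not simulated. The versions were matplotlib 3.10.9, pandas 2.3.3, scipy 1.17.1, numpy 2.4.6 and Python 3.11.15.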

Additional observations from a re-analysis of the deposited data

How the results depend on the processing

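No paired analysis was possible because each condition had 1 library, and no library could be left out. The fold of the summed members, in the order Malat1 over Actb, Tfrc over Actb and Malat1 over Tfrc (1.21, 1.04 and 1.16 as reported), was 0.667, 0.670 and 1.01 with the median ratio, 0.668, 0.649 and 1.03 with the 75th percentile and 0.759, 0.743 and 1.02 with totals without the 10 largest genes. It was 2.63, 1.75 and 1.50 in Ensembl-ID counts, 0.322, 0.355 and 0.907 in Genome counts over Genome totals, and 4.12, 1.81 and 2.27 without Mir5105. In Genome counts over all totals it moved past its interval in the first comparison, to 1.17. Members at a fold of 2 or more (8, 3 and 5) numbered 5 in the first comparison and 3 in the last with each of the 3 scalings. They numbered 2, 1 and 0 in Ensembl-ID counts and 1, 0 and 3 in Genome counts over Genome totals. With any count above 0 in both libraries they numbered 30, 20 and 25, and with a minimum of 50 counts 2, 1 and 2, where more or fewer genes were counted by construction. Genome counts over Genome totals turned the fold in Malat1 over Actb of the Mir290 cluster to 0.863, Mir30d to 0.993, Mir291b to 0.704, Mir294 to 0.596, Mir291a to 0.773 and Mir293 to 0.453. In Tfrc over Actb they turned the Mir290 cluster to 0.609, Mir17hg to 0.622, Mir292 to 0.644, Mir30d to 0.960, Mir291b to 0.615 and Mir294 to 0.554, and in Malat1 over Tfrc Mir295 to 0.939. The median ratio and the 75th percentile turned Mir293 in Malat1 over Actb to 0.901 and 0.903, the 75th percentile Mir294 in Tfrc over Actb to 0.991, and these scalings, top-10 totals and Genome totals put Mir5105 in Malat1 over Tfrc (1.00) at 0.794 to 0.886. The cause was not tested. A pseudocount of 1 moved none of 40 folds of single members or of the cluster past its counting interval, while the median ratio moved 22 of 40. Hairpin values rest on few counts, and intervals do not cover the spread between libraries of a condition.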
